A study of Mus musculus with 6 samples.

Results

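The Kit, Flt3 and colony-stimulating factor receptor genes were followed in single-cell RNA-seq of mouse dendritic cell cultures and skin wounds. The set holds 10 of the 31053 genes in the deposited tables, chosen by name: the ligand genes Kitl and Csf1, the receptor tyrosine kinase genes Kit, Flt3 and Csf1r, and the cytokine receptor genes Csf2ra, Il3ra, Csf2rb, Csf2rb2 and Csf3r. All 10 were described in cells with at least 300 genes detected, under 100000 unique molecular identifiers (UMIs, counted RNA molecules) and under 10% mitochondrial UMIs.

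Bone marrow of wild-type C57BL/6J mice was cultured with recombinant GM-CSF, the ligand of one of these receptors, and the cells in suspension were taken as dendritic cells (DCs), without the adherent ones. The 3 culture libraries held untreated DCs, DCs given vitamin D3 (VD3, calcitriol) at 1e-06 M for 24 h from day 7, and DCs in which Ndrg2 had been targeted by nucleofection of Cas9 protein with guide RNAs (Ndrg2-KO DCs). The untreated DCs are not described as nucleofected, so in the cultures an effect of nucleofection cannot be told apart from one of losing Ndrg2. The 3 wound libraries came from splinted full-thickness wounds on the backs of 6-week-old C57BL/6J mice, covered with pullulan-collagen hydrogels seeded with control DCs, seeded with Ndrg2-KO DCs or left blank. The wounds were explanted on day 10, with 5 mice per group. The labels call the control DCs untreated, whereas the methods give them nucleofection with non-targeting guides, and no label marks which wound cells came from the gel. Each condition was 1 library, so no difference between conditions has a replicate check and no test was possible. All intervals are exact 95% intervals and cover counting error only.

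The kept cells numbered 7257 untreated, 8825 VD3 and 7969 Ndrg2-KO DCs, and 1948, 5681 and 3403 cells of control, Ndrg2-KO and blank wounds, as the groups are called below. Median depth ran from 12089 to 16316 UMIs per cell in the cultures and from 4415 to 10795 in the wounds. Pairs of libraries shared 1 to 19 cell barcodes, at most 0.264% of the smaller library. All 10 genes had at least 50 UMIs in each library except VD3 DCs, where 9 did and Kitl had 8 UMIs. Ndrg2 stood at 4.62 CPM (UMIs per 1000000 UMIs of the cells summed) in untreated, 1.42 in VD3 and 0.884 in Ndrg2-KO DCs, and at 6.10, 3.33 and 3.30 CPM in control, Ndrg2-KO and blank wounds. The level was thus lower in Ndrg2-KO than in untreated cultures, and alike in wounds with Ndrg2-KO DCs and wounds with no seeded cells.

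Kit, Flt3 and Csf1r are related receptor tyrosine kinases: Kit binds Kit ligand (stem cell factor, from Kitl) and marks progenitors, mast cells and melanocytes, Flt3 drives the development of DCs, and Csf1r binds CSF1 and sustains macrophages. GM-CSF and IL-3 each bind an alpha chain of their own (Csf2ra, Il3ra) that signals through a shared beta chain, Csf2rb, and mice carry a close copy, Csf2rb2, that serves IL-3. Csf3r is the G-CSF receptor of the neutrophil lineage.

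In GRCm38, Kit lies at chr5:75574916-75656722 and Kitl at chr10:100015630-100100416, both on the plus strand. Flt3 lies at chr5:147330741-147400489 and Csf2rb2 at chr15:78282507-78305721, both on the minus strand, and Csf2rb next to the latter at chr15:78325752-78353847 on the plus strand. Flt3, Csf1r and Il3ra overlap genes of the opposite strand, and reads of the partners can be told apart only if counting used the strand. The upstream sequences of Kit and Kitl are given because these genes changed most between the cultures, and that of Csf2rb2 because it held matches to more than one of the motifs searched. Capitals mark motif matches (GAGGAA, the core bound by PU.1, or its reverse complement, and the STAT motif TTCNNNGAA), each sequence is written in the direction of its gene, and each ends at the first annotated transcript start (RefSeq sequence, GRCm38.p6). Kit covers chr5:75574737-75574915, Kitl chr10:100015571-100015629 and Csf2rb2 chr15:78305722-78305971.
Kit: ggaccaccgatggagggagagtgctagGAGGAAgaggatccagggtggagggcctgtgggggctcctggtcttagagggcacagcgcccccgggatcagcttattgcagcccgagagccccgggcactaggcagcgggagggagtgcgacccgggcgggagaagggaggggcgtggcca
Kitl: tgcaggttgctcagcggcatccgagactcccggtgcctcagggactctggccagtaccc
Csf2rb2: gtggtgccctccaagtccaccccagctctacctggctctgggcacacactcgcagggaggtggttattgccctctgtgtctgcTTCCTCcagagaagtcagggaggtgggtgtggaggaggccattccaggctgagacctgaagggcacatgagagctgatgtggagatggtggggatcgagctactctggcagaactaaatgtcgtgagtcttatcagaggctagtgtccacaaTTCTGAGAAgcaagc

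Of the 10 genes, 8 had a RefSeq promoter window, and both strands of its 250 bases before the RefSeq start were searched. In Kit, Kitl, Csf2ra, Csf3r and Il3ra this window runs past the first annotated transcript start, and the matches in Csf2ra, Csf3r and Il3ra lie across or past it. GAGGAA was found in 4 of the 8 (Kit, Csf2ra, Csf2rb2 and Csf3r) and in 23.3% of all 32851 promoters, and TTCNNNGAA in Csf2rb2 alone and in 7.02% of promoters. The half-site of the vitamin D receptor, AGGTCA, was in none of the 8 and in 14% of all promoters, the GATA motif AGATAA in none and in 9.99%, and the C/EBP motif TTGCNNAA in Il3ra alone and in 9.56%. These matches describe letters in a short window and show no binding.

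To place the genes, the cells were clustered without the 10 genes among the variable genes, and clusters were named from marker lists. Most DC clusters held cells of nearly 1 library. Mature DC-like cells (Ccr7, Fscn1, Ccl22) formed a cluster led by Fscn1 and Ccl22 with 2595 untreated of 2770 cells, one led by H2-Q6 and Ccr7 with 3292 VD3 of 3319 cells, and one led by Clu and Ccl5 with 1838 Ndrg2-KO of 1864 cells. Immature cells led by Arg1 and Fn1 were 3673 Ndrg2-KO of 3679 cells, cells led by Plet1 and Mgl2 were 1091 untreated of 1094, and macrophage-like cells led by Gdf15 and Ms4a7 were 1141 VD3 of 1144. State and library therefore cannot be told apart in these clusters, whereas neutrophil-like, progenitor-like, cDC1-like and basophil-like clusters held both untreated and VD3 cells.

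A gene was called higher or lower between libraries where its CPM differed at least 2-fold and it had at least 50 UMIs in 1 of them, and "rose" and "fell" below have this meaning. Between VD3 and untreated DCs, 3 of the 10 genes were called, Kit higher and Kitl and Flt3 lower, against 11.3% of the 12560 genes tested (3.97% higher and 7.36% lower). Between Ndrg2-KO and untreated DCs, 4 of 10 were called, Kitl and Csf1 higher and Flt3 and Csf3r lower, against 18.9% of 12855 genes (10.0% higher and 8.87% lower). Between Ndrg2-KO and VD3 DCs, 4 of 10 were called, Kitl and Csf1 higher and Kit and Csf3r lower, against 21.9% of 12792 (13.1% higher and 8.8% lower). The median log2 ratio of the 10 genes was -0.11, 0.32 and 0.29 in these comparisons, beside -0.08, -0.06 and 0.01 over all genes tested. The first pair of comparisons share the untreated library. A sum over a library cannot tell fewer cells of a kind from less RNA per cell, so the values by state follow each gene.

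**Figure D1:**
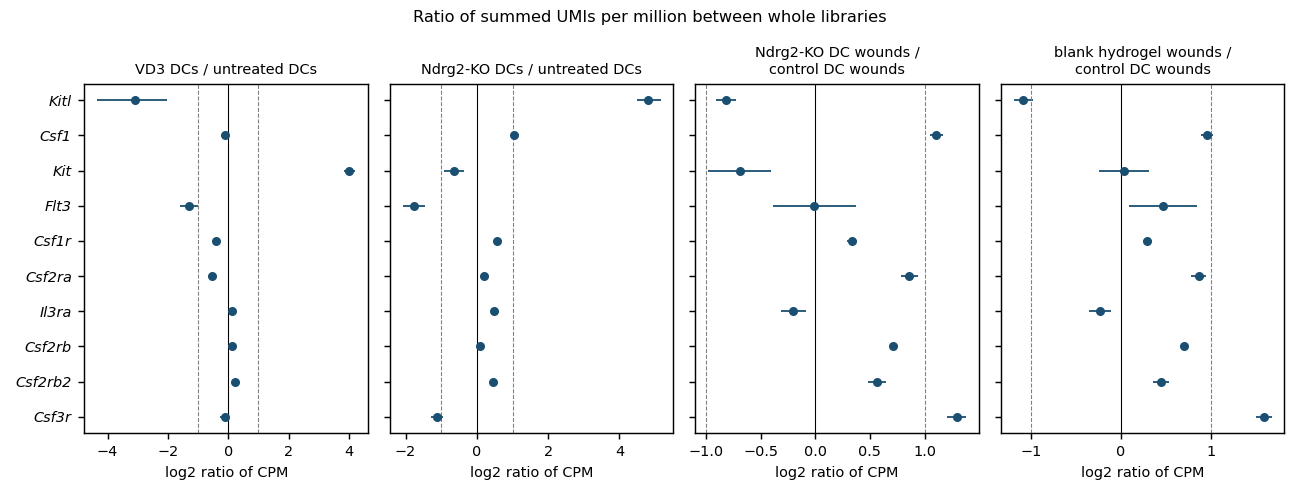
Log2 ratio of CPM for the 10 genes (rows) in 4 library comparisons (panels), with points for the ratio, bars for the exact 95% counting interval and dashed lines at the 2-fold limits. Kit stands at 4.02 in VD3 against untreated DCs and Kitl at 4.81 in Ndrg2-KO against untreated DCs, farther from 0 than any other gene of the set in those panels.

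Kitl, which encodes Kit ligand, was a transcript of the Ndrg2-KO culture. Its level was 0.581 CPM in untreated (77 UMIs), 0.0687 in VD3 (8 UMIs) and 16.3 in Ndrg2-KO DCs (2334 UMIs). The untreated culture was low and the VD3 culture near the limit of detection. Kitl rose 28.0-fold in Ndrg2-KO against untreated DCs (log2 4.81, interval 4.48 to 5.15) and fell in VD3 against untreated DCs (log2 -3.08, -4.34 to -2.03). The fall rests on 8 UMIs and is uncalled where only cells with under 5% mitochondrial UMIs are kept (log2 -1.73, too few UMIs).

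Within the Ndrg2-KO culture, most Kitl UMIs lay in an immature and a cycling cluster. The highest level was 24.7 CPM in cycling cells led by Rrm2 and Spp1, followed by 20.2 CPM (19.1 to 21.2) in the Arg1 Fn1 immature cells. The Arg1 Fn1 cluster held 62.3% of all Kitl UMIs of the cultures. Cells led by Vcan and Ccl24 had 9.84 CPM, whereas the mature Clu Ccl5 cells of the same library had 1.69 and the Mmp9 Chil1 cells 0.542. The 132 Ndrg2-KO cells of the cycling Mki67 Mgl2 cluster had 0.936 CPM (2 UMIs). The low value of mature cells depends on which cells are counted as mature: with at least 6 mature markers, a definition chosen after the data were seen, Kitl was 5.94 CPM in Ndrg2-KO and 0.332 in untreated DCs, and with at least 3 it was 16 and 0.614. Kitl was thus uneven across the clusters of 1 library, and higher in Ndrg2-KO than in untreated DCs by each of these definitions.

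In the untreated culture the Plet1 Mgl2 cells had 1.43 CPM and the cycling Mki67 Mgl2 cells 0.547. Between the largest Csf1r-rich non-cycling states, Arg1 Fn1 in Ndrg2-KO and Plet1 Mgl2 in untreated DCs, Kitl rose by a log2 ratio of 3.82 (3.33 to 4.34), where 15.4% of genes tested were called. In the VD3 culture the H2-Q6 Ccr7 mature cells had 0 Kitl UMIs among 49426138, and the 8 UMIs lay in other clusters, with at most 3 in any and 2 in the 23 VD3 cells of the mature Fscn1 Ccl22 cluster. After every cell was drawn down to 2000 UMIs, 2.57% of Ndrg2-KO cells carried a Kitl UMI (19.1% before), beside 0.0295% of untreated and 0.013% of VD3 cells.

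Csf1, the gene of macrophage colony-stimulating factor, stood at 9.39 CPM in untreated, 8.78 in VD3 and 19.4 in Ndrg2-KO DCs. The untreated and VD3 cultures were alike and the Ndrg2-KO culture was higher (log2 1.05, 0.95 to 1.15, against untreated). This ratio lies close to the 2-fold limit, and the call is lost where cells with 5% mitochondrial UMIs or more are left out (log2 0.89), where mitochondrial and ribosomal protein genes are left out of the total (0.97), or where cells are weighted equally (0.82). Over states, Csf1 was highest in the Mmp9 Chil1 cells of the Ndrg2-KO culture at 55.0 CPM, and the cycling Rrm2 Spp1 cells had 28.8 and the Arg1 Fn1 cells 20.3. Neutrophil-like cells had 31.1 CPM in untreated and 17.2 in VD3 DCs. The mature clusters were low in all 3 libraries, at 2.26 CPM in untreated, 5.54 in VD3 and 3.63 in Ndrg2-KO DCs, and cDC1-like cells had 1 Csf1 UMI each in untreated and VD3 DCs. These mature values depend on which cells are counted as mature. With at least 6 mature markers, a definition chosen after the data were seen, Csf1 was 5.47, 7.21 and 9.12 CPM in untreated, VD3 and Ndrg2-KO DCs. With at least 3 it was 8.94, 8.37 and 18.6 CPM, near the library levels.

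Kit, the receptor of Kit ligand, was raised in the VD3 culture. Its level was 1.89 CPM in untreated (251 UMIs), 30.7 in VD3 (3573 UMIs) and 1.22 in Ndrg2-KO DCs (175 UMIs). The VD3 library stood above both others, 16.2-fold above untreated (log2 4.02, 3.83 to 4.21). The ratio was 2.82 with cells weighted equally and 3.35 with only cells under 5% mitochondrial UMIs. The untreated and Ndrg2-KO libraries differed by a log2 ratio of -0.64, inside the 2-fold limit, but past it in those alternatives (-1.15 and -1.58).

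Kit levels were ordered by state as well as by library. With the 3 libraries summed, cDC1-like cells (conventional type 1 DCs, led by Itgae and Tcea3) had 124 CPM (112 to 137), progenitor-like cells 38.7, the H2-Q6 Ccr7 mature cells 29.8, the Olfr920 Gdf15 cells 24.3 and the macrophage-like cells 16.3. This order follows the VD3 library, which held 3573 of the 3999 Kit UMIs. In untreated cells basophil-like cells had 11.9 CPM (7 UMIs), progenitor-like 10.8 (28), cDC1-like 9.16 (10) and neutrophil-like 7.45 (35), too few UMIs to order them. The first 5 states in the pooled order were separate beyond their counting intervals, and the macrophage-like and basophil-like cells (9.12 CPM) were not. The H2-Q6 Ccr7 mature cells held 37.0% of Kit UMIs, the progenitor-like cells 28.4% and the 227 cDC1-like cells 9.63%. In the progenitor-like cluster 1109 of the 1137 Kit UMIs were from VD3 cells. Those cells had 4.65 CPM of the lineage factor Myb, beside 78.7 in untreated cells of the cluster, and 10.5 CPM of Cebpa, beside 51.9. The cluster's name therefore fits its VD3 cells less surely, and whether they are progenitors was not tested.

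Within clusters that held cells of both libraries, Kit was higher in VD3 than in untreated cells of the cDC1-like and progenitor-like ones. In cDC1-like cells Kit stood at 188 CPM (169 to 208) in VD3 and 9.16 (4.39 to 16.8, 10 UMIs) in untreated DCs, a log2 ratio of 4.36 (3.46 to 5.43) where 13.1% of genes tested were called. The lineage factors Irf8 (296 against 953 CPM) and Irf4 (68.8 against 14.6 CPM) also differed in these cells, so a change within 1 kind of cell cannot be told apart from different cells in the cluster. Progenitor-like cells had 41.6 CPM in VD3 and 10.8 in untreated DCs (log2 1.95), where 27.6% were called. The shallow cycling, neutrophil-like and basophil-like clusters, where 9.92%, 4.05% and 6.42% of genes were called, had too few Kit UMIs to be tested. Neutrophil-like cells had 3.72 CPM in VD3 and 7.45 in untreated DCs, and basophil-like cells 6.89 and 11.9. The neutrophil-like and basophil-like clusters lay low in the VD3 library although its mature and cDC1-like cells were high.

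The clusters of mature DC-like cells follow the libraries. Kit stood there at 30.0 CPM (28.5 to 31.5) in VD3, 2.21 in untreated and 3.84 in Ndrg2-KO DCs. The VD3 mature cells were above those of untreated DCs by a log2 ratio of 3.76, where 7.53% of genes tested were called. With mature cells taken by at least 6 mature markers across clusters, a definition chosen after the data were seen, Kit was 30.6, 1.77 and 3.38 CPM in VD3, untreated and Ndrg2-KO DCs. The macrophage-like VD3 cells had 16.4 CPM and the untreated Plet1 Mgl2 cells 0.94 (log2 4.12), where 13.1% were called. Kit was thus higher in VD3 than in untreated DCs in mature and Csf1r-rich states alike.

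At 2000 UMIs per cell, 5.12% of VD3 cells carried a Kit UMI (22.3% before), beside 0.59% of untreated and 0.357% of Ndrg2-KO cells. The share was 23.3% in cDC1-like cells (median 12700 UMIs) and 0.94% in neutrophil-like cells (median 2885.5 UMIs). Mast cells and basophils, which can express Kit, were looked for by their markers. Only 2 cultured cells carried 3 or more mast cell markers, with 0 Kit UMIs between them, and 69 cells passed the same limit for basophils, with 2 of the 3999 Kit UMIs. The summed mast cell markers were 9.48, 12.7 and 0.0278 CPM in untreated, VD3 and Ndrg2-KO DCs.

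**Figure D2:**
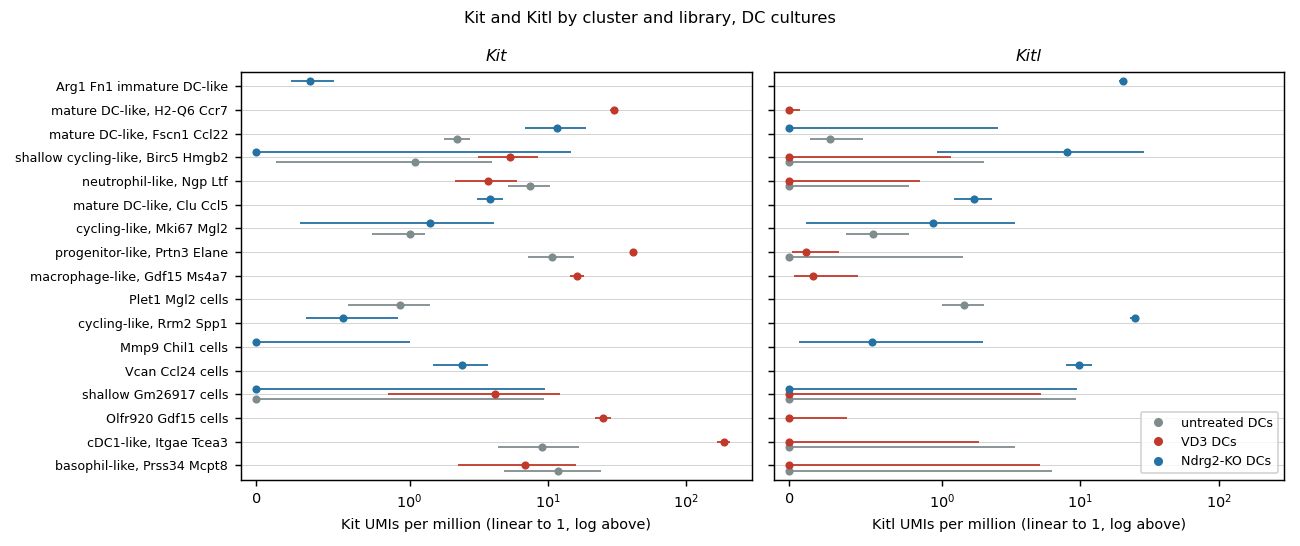
Kit and Kitl CPM by DC cluster and library (points, for libraries with at least 50 cells in the cluster, with 95% counting intervals) on an axis that is linear near 0 and logarithmic above. Kit is highest in VD3 cDC1-like cells at 188 CPM and Kitl in Ndrg2-KO cycling cells led by Rrm2 and Spp1 at 24.7 CPM.

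Flt3, the receptor that drives DC development, was scarce in all cultures. It stood at 2.69 CPM in untreated (357 UMIs), 1.10 in VD3 (128 UMIs) and 0.794 in Ndrg2-KO DCs (114 UMIs). The untreated culture was the highest, and Flt3 fell against it in VD3 (log2 -1.29, -1.596 to -0.998) and in Ndrg2-KO DCs (log2 -1.76, -2.08 to -1.45). In cDC1-like cells, Flt3 was 39.4 CPM (28.5 to 53.0) in untreated and 5.52 in VD3 DCs (43 and 11 UMIs, too few to be tested). Csf1r in the same cells was 120 CPM in untreated and 53.2 in VD3 DCs (log2 -1.17), while Kit was higher in VD3 DCs.

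Mature cells had 4.89 CPM of Flt3 in untreated, 1.60 in VD3 and 1.06 in Ndrg2-KO DCs of the Clu Ccl5 cluster. The low value of the Ndrg2-KO mature cells depends on which cells are counted as mature. The 152 Ndrg2-KO cells that fell in the mostly untreated Fscn1 Ccl22 cluster held 64 of the 114 Flt3 UMIs of their library, at 44.2 CPM (34.1 to 56.5). Where mature cells were taken instead by at least 6 mature DC markers, a definition chosen after the data were seen, Flt3 was 2.66 CPM in Ndrg2-KO and 3.95 in untreated DCs, a log2 ratio of -0.57. With at least 3 markers it was 0.912 and 2.85 CPM, a log2 ratio of -1.64, past the 2-fold limit.

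Csf1r, the CSF1 receptor, was among the abundant members of the set in immature and macrophage-like states. Its level was 151 CPM in untreated, 114 in VD3 and 220.5 in Ndrg2-KO DCs, and no pair of libraries was past the 2-fold limit. With only cells under 5% mitochondrial UMIs kept, Ndrg2-KO DCs were past it against untreated (log2 1.13) and VD3 DCs (log2 1.80). Over states it was 297 CPM in Plet1 Mgl2 cells, 286 in Arg1 Fn1 immature cells and 282 in macrophage-like VD3 cells, so the leading Csf1r-rich state of each library lay within a narrow range. Neutrophil-like cells of the cultures followed at 245 and 226 CPM in untreated and VD3 DCs. The mature clusters were far lower, at 4.08 CPM in untreated and 2.85 in VD3 DCs, but cells with at least 6 mature markers had 68.4 and 44.7 CPM.

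The mature Clu Ccl5 cells of the Ndrg2-KO culture had 39.6 CPM of Csf1r, above the mature cells of untreated DCs by a log2 ratio of 3.28. In this comparison 3 of the 8 members tested were called, Csf1r and Csf2rb2 higher and Flt3 lower, against 14.8% of genes. The size of the Csf1r difference depends on the definition of mature cells: with at least 6 mature markers the log2 ratio was 0.56. The 152 Ndrg2-KO cells of the Fscn1 Ccl22 cluster had 2.76 CPM. Progenitor-like cells had 190 CPM of Csf1r in VD3 and 26.9 in untreated DCs (log2 2.82).

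In the progenitor-like cluster 5 of the 8 members tested were higher and 1 lower in VD3 cells, beside 21.3% of genes higher and 6.29% lower there. The cluster also held markers of neutrophils, macrophages and cycling cells, and 1068 of its 1173 cells were VD3 cells. Kit, Csf1, Csf1r, Csf2rb and Csf2rb2 were higher, and Csf3r was lower, at 14.2 CPM in untreated and 2.33 in VD3 cells. Of 10 lineage factors tested there, Myb (4.65 against 78.7 CPM), Cebpe (39.6 against 229) and Cebpa (10.5 against 51.9) were lower and Irf4 (47.6 against 6.15), Mitf (30.6 against 4.61) and Irf8 (132 against 29.6) higher in VD3 than in untreated cells. The factors thus moved along with the receptors, and a change within 1 kind of cell cannot be told apart from different cells in the cluster.

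Csf2ra, the GM-CSF alpha chain, was present in every DC state. Its level was 144 CPM in untreated, 98.7 in VD3 and 163 in Ndrg2-KO DCs, all inside the 2-fold limit of each other. Plet1 Mgl2 cells had 218 CPM, neutrophil-like cells 212 in untreated and 193 in VD3 DCs, Arg1 Fn1 cells 190 and macrophage-like cells 168. Mature cells were lower, with 60.2, 47.6 and 69.4 CPM in untreated, VD3 and Ndrg2-KO DCs. The GM-CSF receptor alpha chain was thus lower in the mature cluster of each library than in its leading Csf1r-rich one.

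Il3ra, the IL-3 alpha chain, stood at 28.6 CPM in untreated, 31.5 in VD3 and 40.0 in Ndrg2-KO DCs. Basophil-like cells had 81.6 CPM in untreated and 68.9 in VD3 DCs. Mature cells followed at 50.5, 47.2 and 55.9 CPM in untreated, VD3 and Ndrg2-KO DCs, and were above the Plet1 Mgl2 cells (20.1 CPM) and the macrophage-like cells (19.2 CPM), the reverse of the order of Csf2ra. Neutrophil-like cells had 11.7 CPM in untreated and 5.81 in VD3 DCs (log2 -1.01).

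Csf2rb, the shared beta chain, was at 795 CPM in untreated, 865 in VD3 and 835 in Ndrg2-KO DCs, and varied little between libraries. Csf2rb2 was at 224, 260 and 304 CPM in the same order. Mature cells had 585 CPM of Csf2rb in untreated, 967 in VD3 and 1100 in Ndrg2-KO DCs. Lower levels were found in the shallow cycling cells (141 CPM), the shallow Gm26917 cells (223) and the basophil-like cells (441). Progenitor-like cells had 165 CPM in untreated and 702 in VD3 DCs (log2 2.09), and Csf2rb2 there was 25.0 in untreated and 204 in VD3 cells (log2 3.03).

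Csf2rb2 had fewer UMIs than its neighbour in every DC cluster. With the libraries summed, it made up 20.2% of the UMIs of both genes together in cycling Mki67 Mgl2 cells and 29.7% in mature Clu Ccl5 cells, and in untreated progenitor-like cells 13.2%. Its level in mature cells was 201 CPM in untreated, 287 in VD3 and 464 in Ndrg2-KO DCs (log2 1.202 for Ndrg2-KO against untreated), and with at least 6 mature markers this ratio was 0.86. The longest open reading frames of the pair are 95.2% identical over 2631 aligned bases, but the last 1000 bases of their transcripts share none of the 910 windows of 91 bases, and the longest identical run there is 39 bases. Reads near the 3' end could thus be told apart, and reads within the coding sequence less surely.

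Csf3r, the G-CSF receptor, had its highest level in the neutrophil-like cells. It stood at 6.48 CPM in untreated (859 UMIs), 5.96 in VD3 (694 UMIs) and 2.97 in Ndrg2-KO DCs (426 UMIs), a fall against untreated of log2 -1.127 (-1.298 to -0.958), or -3.09 with cells weighted equally. The neutrophil-like cluster held 53.8% of the Csf3r UMIs of the cultures and had 117 CPM in untreated and 118 in VD3 DCs. It numbered 925 untreated, 1107 VD3 and 34 Ndrg2-KO cells, and the summed neutrophil markers were 5340, 6340 and 401 CPM in these libraries. Within the cluster Csf3r was therefore alike in untreated and VD3 cells, and the Ndrg2-KO library that was low in Csf3r was also low in neutrophil-like cells. In that library the neutrophil-like cells held 2.11% of the Csf3r UMIs (9 UMIs, 72.3 CPM), and the Arg1 Fn1 immature cells 55.6% (237 UMIs, 3.17 CPM).

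**Figure D3:**
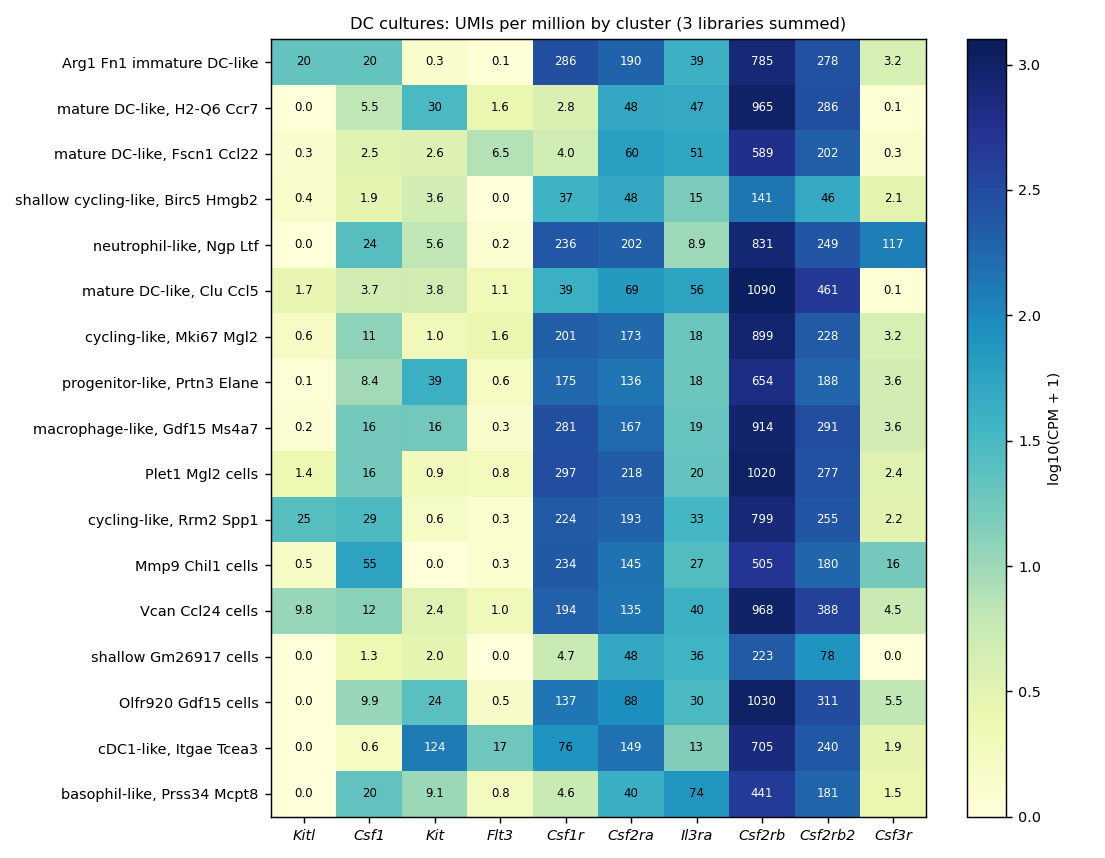
CPM of the 10 genes (columns) in the 17 clusters of cultured DCs (rows), the 3 libraries summed, with colour as log10(CPM + 1) and the CPM printed in each cell. Csf1r is 297 in Plet1 Mgl2 cells and in single digits in the mature Fscn1 Ccl22 and H2-Q6 Ccr7 cells, and Kit is highest in the cDC1-like cells at 124.

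Of the other ligands, Csf2, Il3 and Il34 had 0 UMIs in all 3 culture libraries, and Csf3 had at most 2 in any. Tslp was the other ligand called, at 0.204 CPM in untreated (27 UMIs), 0.764 in VD3 (89 UMIs) and 0.0835 in Ndrg2-KO DCs (12 UMIs), higher in VD3 than in both other cultures. Flt3l, the ligand of Flt3, stood at 3.79 CPM in untreated, 2.89 in VD3 and 3.54 in Ndrg2-KO DCs. The GM-CSF supplied to the cultures was recombinant protein and leaves no transcript.

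Among 21 signalling genes of these receptors tested, none was called between VD3 and untreated DCs, where 11.3% of all genes were. In Ndrg2-KO against untreated DCs, Gab2, a docking protein, rose (24 against 11.8 CPM), and Stat5a, a transcription factor activated by GM-CSF, fell (19.2 against 39.4 CPM), as did Pik3r1 (63.6 against 129 CPM), 3 of 21 where 18.9% of all genes were called. Of 14 negative regulators tested, 4 fell and none rose in Ndrg2-KO against untreated DCs, where 8.87% of all genes fell and 10.0% rose. The 3 largest falls were those of Cish (61.2 against 183 CPM), Socs1 (26.9 against 76.3) and the adaptor Dok3 (8.44 against 22.8). Cish and Socs1 encode feedback inhibitors induced by cytokine signalling. In VD3 DCs Dok2 alone of the 14 was called, lower at 36.7 against 135 CPM, where 7.36% of all genes were lower. Mature cells stood differently, with Socs1 lower (38.7 against 105 CPM) and Socs3 higher (22.6 against 7.39 CPM) in Ndrg2-KO against untreated DCs and no other of the 14 called, where 14.8% of all genes were. Between the largest Csf1r-rich non-cycling states, Arg1 Fn1 in Ndrg2-KO and Plet1 Mgl2 in untreated DCs, 5 of the 14 were lower and none higher. There 5.68% of all genes were lower and 9.75% higher. Socs3 (7.33 against 43.4 CPM) and Cish (47.9 against 183 CPM) led these falls.

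Among 11 transcription factors of this system tested, Irf8, a factor of DC lineages, rose in VD3 against untreated DCs (307 against 133 CPM), and Cebpa fell (9.93 against 30.3 CPM), as did Myb, where 3.97% of all genes rose and 7.36% fell. In Ndrg2-KO against untreated DCs, Myb (0.341 against 4.10 CPM) and Gata2 (0.689 against 2.87 CPM), fell, where 8.87% of all genes did. Basophil-like cells had 348 CPM of Gata2 and 458 of its UMIs, and 1 of their 134 cells was from the Ndrg2-KO culture. Summed progenitor markers were 228, 89.4 and 8.45 CPM and basophil markers 69.6, 64.5 and 12.4 CPM in untreated, VD3 and Ndrg2-KO DCs, and their part in these differences was not tested. In mature cells the factors stood differently: Myb (1.48 against 0.442 CPM), Tal1 and Irf8 were higher and none lower of 9 tested in VD3 against untreated DCs, and 5 of 9, led by Cebpe and Cebpb (351 against 54.4 CPM), were higher and none lower in Ndrg2-KO against untreated DCs, where 7.53% and 14.8% of all genes were called.

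Over the 27 groups of a DC cluster in a library, the genes most like Kit in log level were Pdxp (Pearson's r 0.82) and Ablim1 (0.80). Those most like Kitl were Stra6l (0.99), Lgi3 (0.97) and Colec12 (0.97), and most like Csf1r P2ry6 (0.96) and Mpeg1 (0.94). The groups share libraries and differ in depth, and no p-value is given.

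In the wounds, the 10 genes were spread over leukocytes, fibroblasts and vessels. The makeup of the libraries differed: both neutrophil-like clusters together were 23.5% (21.6 to 25.4) of cells with control DCs, 51.0% (49.7 to 52.3) with Ndrg2-KO DCs and 45.7% (44.0 to 47.4) with blank hydrogels. Fibroblast-like cells were 24.1%, 8.15% and 9.49%. Levels within clusters are therefore given beside those of whole wound libraries. Of the 10 genes, Csf1 and Csf3r were called higher and none lower in wounds with Ndrg2-KO DCs against control DCs, where 4.44% of 12592 genes were higher and 5.64% lower, 10.1% in all. In wounds with blank hydrogels against control DCs, Csf3r was higher and Kitl lower, where 3.55% of 12249 genes were higher and 3.6% lower, 7.15% in all. Both comparisons share the control library.

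Kitl stood at 66.8 CPM in wounds with control DCs, 37.9 with Ndrg2-KO DCs and 31.5 with blank hydrogels. The control wounds were the highest, and the blank wounds fell against them by a log2 ratio of -1.08 (-1.19 to -0.98). With the neutrophil-like clusters left out, a choice made after the data were seen, this ratio was -0.90, and with cells weighted equally both other wounds were past the limit (-1.58 for Ndrg2-KO and -1.52 for blank). Endothelial-like cells had the highest level, 320 CPM, with 299, 292 and 381 in control, Ndrg2-KO and blank wounds. Fibroblast-like cells had 88.4 CPM and 66.8% of the Kitl UMIs, with 93.9, 95.9 and 70.1 CPM in the 3 libraries. Within fibroblast-like cells Kitl thus differed less than 2-fold between wounds. Lyve1 macrophage-like cells had 100, 72.3 and 86.2 CPM, and neutrophil-like cells 0.8 and 0.3 CPM. In the mixed keratinocyte-like cluster Kitl fell from 101 CPM in control to 38.7 in Ndrg2-KO and 48.0 in blank wounds, where 15.3% and 16.3% of genes were called.

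Csf1 stood at 92.9 CPM in control, 200.1 in Ndrg2-KO and 180.5 in blank wounds, a log2 ratio of 1.11 (1.05 to 1.17) for Ndrg2-KO and 0.96 for blank against control. Neutrophil-like cells had the highest levels, and fibroblast-like cells held the largest share of Csf1 UMIs of any 1 cluster over the 3 wounds summed (35.9%). By wound this share was 64.7% in control, 36.0% in Ndrg2-KO and 23.1% in blank wounds, where the Cxcr2 Retnlg neutrophil-like cells held 43.8%. The Il1a Ccl3 neutrophil-like cells had 513, 668 and 826 CPM in control, Ndrg2-KO and blank wounds, and the Cxcr2 Retnlg neutrophil-like cells 340, 347 and 660. Neither cluster had a member gene past the 2-fold limit, where 5.15% of genes of the Cxcr2 Retnlg cells and 15.7% of the Il1a Ccl3 cells were called in Ndrg2-KO and 8.23% and 10.5% in blank against control wounds. With both neutrophil-like clusters left out, a choice made after the data were seen, the log2 ratio was 0.72 for Ndrg2-KO and -0.05 for blank wounds, and with cells weighted equally the blank wounds were past the limit (1.27).

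Fibroblast-like cells had 120 CPM of Csf1 in control, 276 in Ndrg2-KO and 150 in blank wounds. The Ndrg2-KO wounds were above the control by a log2 ratio of 1.21, and 4 of the 7 members tested there were higher, where 3.68% of genes were higher and 4.86% called in all. The leukocyte genes Spi1 (11.7 against 2.75 CPM) and Il2rg (5.46 against 2.15 CPM) were also higher there, as they were in blank wounds (9.79 and 5.36 CPM). The 4 members were Csf1, Csf1r (23.9 against 10.8 CPM), Csf2ra (13.1 against 6.52 CPM) and Csf2rb, and the median log2 ratio of the 7 was 1.01 beside 0.08 over all genes. The summed macrophage markers were 706 against 550 CPM in these cells, and the part of leukocyte RNA was not tested. S100a9, a neutrophil gene, was 26.1, 312 and 256 CPM in fibroblast-like cells of control, Ndrg2-KO and blank wounds, and so also higher in the latter wounds. Csf1 stood at 4590, 886 and 586 UMIs per 1000 S100a9 UMIs there, beside 4.25 to 17.5 in neutrophil-like cells.

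In macrophage-like Mrc1 C1qa cells and the unnamed H2-Ab1 Ccr2 cells, levels were lower. Csf1 was 3.45, 26.1 and 30.3 CPM in control, Ndrg2-KO and blank wounds in the Mrc1 C1qa cells, and 9.07, 58.9 and 45.4 CPM in the H2-Ab1 Ccr2 cells. In Ndrg2-KO and blank against control wounds 3.99% and 1.89% of genes were called in the former and 2.73% and 2.54% in the latter. S100a9 was likewise lowest in the control, at 241, 2620 and 788 CPM in the Mrc1 C1qa cells and 1020, 4440 and 1710 in the H2-Ab1 Ccr2 cells. In Ndrg2-KO wounds Csf1 was 9.96 and 13.2 UMIs per 1000 S100a9 UMIs in these clusters, inside the range of neutrophil-like cells, and in blank wounds 38.4 and 26.5, above it. The unnamed Mmp12 Arg1 cells had 10.7, 53.6 and 21.8 CPM of Csf1 in control, Ndrg2-KO and blank wounds, called higher in both against control. There 6.75% and 3.19% of genes were called. S100a9 in these cells was 45.5, 2040 and 722 CPM, and Csf1 stood at 26.2 and 30.2 UMIs per 1000 S100a9 UMIs in Ndrg2-KO and blank wounds. The part of neutrophil RNA in the levels of these 3 clusters was not tested. T cell-like cells had 39.2, 114 and 12.2 CPM of Csf1, high in the Ndrg2-KO wounds (log2 1.54, where 5.92% of genes were called), at 65.8 UMIs per 1000 S100a9 UMIs there.

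**Figure D4:**
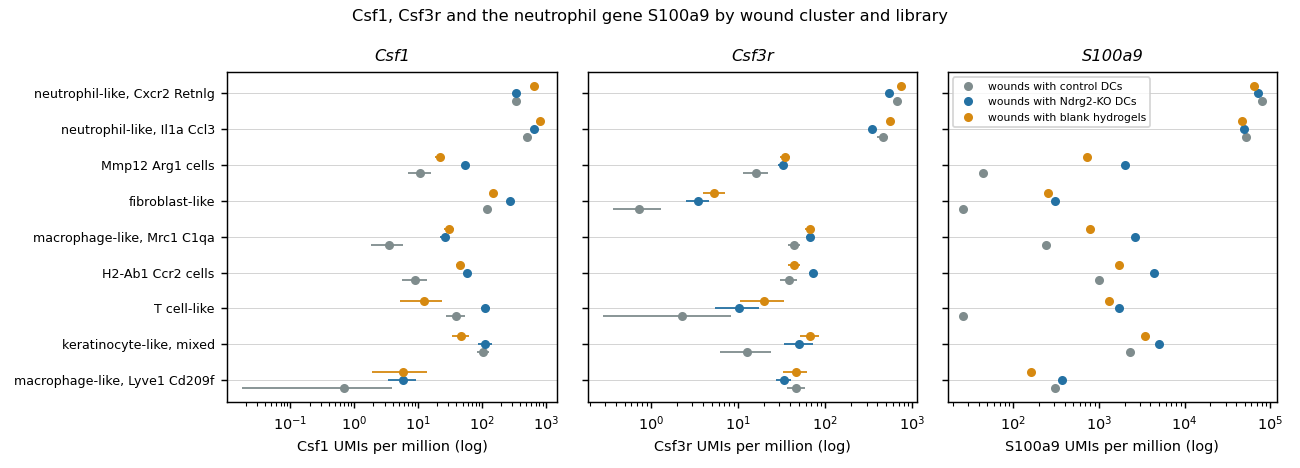
CPM of Csf1, Csf3r and the neutrophil gene S100a9 (panels, log axis) in the 9 wound clusters with at least 50 cells in each library, with points coloured by library and 95% counting intervals. Csf1 is highest in the neutrophil-like Il1a Ccl3 cells at 513 to 826 CPM, and S100a9 in macrophage-like Mrc1 C1qa cells runs from 241 CPM in control to 2620 CPM in Ndrg2-KO wounds.

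Kit was scarce in the wounds, at 6.84 CPM in control, 4.22 in Ndrg2-KO and 6.99 in blank wounds, all within the 2-fold limit. Endothelial-like cells had 140 CPM (120 to 162), NK-like cells 70.2, mature DC-like cells 50.8 and the mixed keratinocyte-like cells 39.9. The endothelial-like cells had 185 CPM in control, 65.8 in Ndrg2-KO and 154 in blank wounds, from only 27, 18 and 10 cells. Mast cells were too few to cluster: 13 cells with 3 or more mast cell markers held 61 Kit UMIs, 466 CPM (356 to 598) and 9.31% of the total. Melanocyte markers picked out 6 cells with 40 Kit UMIs, all in 4 cells of the blank wounds, which made 16.4% of the Kit UMIs of that library. By share of Kit UMIs, endothelial-like cells held 27.0%, the 12.3 CPM of the H2-Ab1 Ccr2 cells made 19.7%, and the mixed keratinocyte-like cells held 13.9% and T cell-like cells 8.4%. Macrophage-like Mrc1 C1qa cells had 0.4 CPM.

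Flt3 was found mainly in mature DC-like cells and the H2-Ab1 Ccr2 cells. Its library level was 3.20 CPM in control, 3.17 in Ndrg2-KO and 4.41 in blank wounds. Mature DC-like cells had 205, 237 and 168 CPM, and the H2-Ab1 Ccr2 cells 26.8, 16.1 and 17.1. These clusters held 43.5% and 48.4% of Flt3 UMIs, and no other cluster exceeded 2.72 CPM.

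Csf1r stood at 197 CPM in control, 249 in Ndrg2-KO and 242 in blank wounds. Lyve1 macrophage-like cells had 714, 737 and 869 CPM, Mrc1 C1qa cells 728, 724 and 659, and H2-Ab1 Ccr2 cells 441, 471 and 420. The receptor was thus level across the 3 wounds within each of these clusters, where the Cxcr2 Retnlg and Il1a Ccl3 neutrophil-like cells had 55.3 and 62.4 CPM.

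Csf2ra was at 58.1 CPM in control and 106 in both other wounds. The Cxcr2 Retnlg neutrophil-like cells had 241, 225 and 215 CPM, level across the libraries. Csf2rb was at 196, 321 and 318 CPM by library, highest in mature DC-like cells (910 CPM) and H2-Ab1 Ccr2 cells (827, 846 and 854 CPM). In fibroblast-like cells Csf2rb was 5.58 CPM in control, 33.4 in Ndrg2-KO and 17.1 in blank wounds, at 107 UMIs per 1000 S100a9 UMIs in Ndrg2-KO wounds beside 9.11 to 12.3 in neutrophil-like cells, and 2.67% of genes were called there in blank wounds. T cell-like cells had 47.3, 140 and 132 CPM of Csf2rb and 12.7, 76.0 and 71.4 of Csf2rb2, where 5.92% and 7.03% of genes were called in Ndrg2-KO and blank against control wounds. S100a9 in these cells was 26.5, 1730 and 1330 CPM, also lowest in the control, and the part of neutrophil RNA was not tested. Csf2rb2 over whole wounds was 53.8, 79.7 and 73.3 CPM.

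Csf3r stood at 46.8 CPM in control, 115 in Ndrg2-KO and 140 in blank wounds, log2 ratios of 1.295 (1.21 to 1.38) and 1.585 (1.498 to 1.672) against control. Within neutrophil-like cells it did not follow these libraries: the Cxcr2 Retnlg cells had 665, 538 and 738 CPM and the Il1a Ccl3 cells 458, 349 and 551, with the Ndrg2-KO wounds lowest in both. These clusters held 55.7% and 23.0% of Csf3r UMIs. With both left out, the ratios were 1.23 and 1.13, and with cells weighted equally 0.66, inside the 2-fold limit, and 1.09. The Mmp12 Arg1 cells had 16.1, 32.6 and 35.1 CPM of Csf3r, called higher in both against control, where 6.75% and 3.19% of genes were called. Over the whole libraries the summed neutrophil markers were 8540, 26400 and 20400 CPM, in which the control was also the lowest. Il3ra was level at 36.5, 31.8 and 31.1 CPM, with 52.2% of its UMIs in fibroblast-like cells (46.0, 60.5 and 50.3 CPM).

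**Figure D5:**
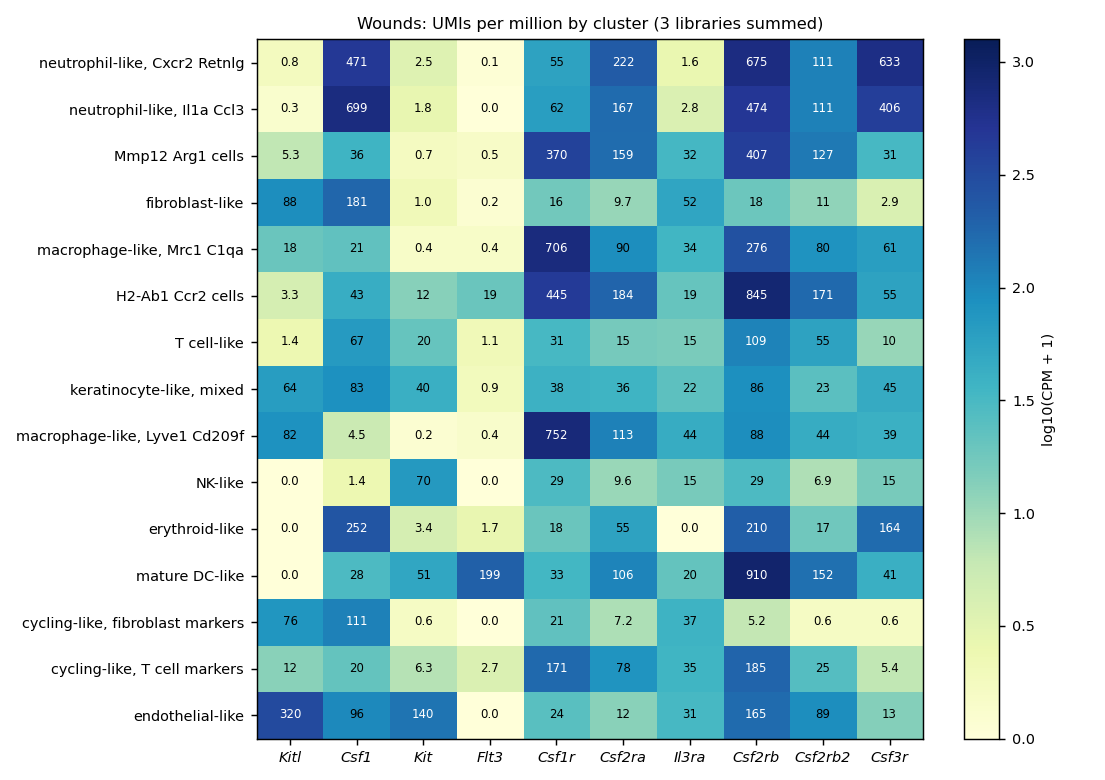
CPM of the 10 genes (columns) in the 15 wound clusters (rows), the 3 libraries summed, with colour as log10(CPM + 1) and the CPM printed in each cell. Kitl is highest in endothelial-like cells at 320, Csf1r in Lyve1 macrophage-like cells at 752 and Csf3r in Cxcr2 Retnlg neutrophil-like cells at 633.

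The other ligands were present in the wounds. Csf2, encoding GM-CSF, stood at 45.9 CPM in control, 36.9 in Ndrg2-KO and 28.9 in blank wounds, and in fibroblast-like cells at 80.8 CPM. Csf3, encoding G-CSF, was at 79.6, 142 and 76.0 CPM, with 306 CPM in endothelial-like and 295 in Il1a Ccl3 neutrophil-like cells. The Mmp12 Arg1 cells held more Csf3 UMIs (3466) than any other cluster, at 40.1, 344 and 87.0 CPM in control, Ndrg2-KO and blank wounds. In Lyve1 macrophage-like cells the control was the highest, at 43.4, 2.77 and 2.36 CPM, as it was in the mixed keratinocyte-like cells at 94.3, 42.2 and 17.1 CPM. Il3 was seen as 17 UMIs, all in T cell-like cells. Il5, whose receptor uses the same beta chain, rose in Ndrg2-KO wounds (8.90 against 1.04 CPM in control), and Il34, the other ligand of Csf1r, fell (1.08 against 2.43 CPM), 1 each way of 6 other ligands tested, where 4.44% of all genes rose and 5.64% fell. Flt3l was 4.79, 3.98 and 4.50 CPM in control, Ndrg2-KO and blank wounds. Of the signalling genes, the kinase gene Fgr was called higher in Ndrg2-KO wounds (44.2 against 20.5 CPM) and also in blank wounds, none was called lower, and of 14 negative regulators none was called in Ndrg2-KO wounds and Ptpn6 was higher in blank wounds (63.1 against 28.0 CPM), where 10.1% and 7.15% of all genes were called. Of 11 transcription factors tested in Ndrg2-KO wounds, Cebpe was higher (5.48 against 2.39 CPM) and Myb lower (2.01 against 4.45 CPM). Of 10 tested in blank wounds, Cebpe alone was called, higher at 5.73 CPM.

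Over 28 groups of a wound cluster in a library, P2ry6 (r 0.98) and Adgre1 (0.97) were most like Csf1r, and P2ry6 led that order in the cultures too. Syk (0.98) was most like Csf2ra, Pik3ap1 (0.98) most like Csf3r, and Maoa (0.97) and Ptk2 (0.97) most like Kitl.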

How the data were processed

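The deposited files were tables of raw UMI counts, genes by barcodes, which the authors made with Cell Ranger (3.1.0 for the cultures and 6.0.0 for the wounds, per the file headers) and not normalized. The labels name mm9 and the methods mm10 as the genome, and gene positions here are those of GENCODE M21 (GRCm38). The series' design text describes parabiosis and sorted GFP-positive cells, which neither the labels nor the methods of these samples do. The hashtag antibody features were 0 in every cell.

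Cells were kept with 300 or more genes, fewer than 100000 UMIs and less than 10% of UMIs mitochondrial, which left 7257, 8825, 7969, 1948, 5681 and 3403 of 7866, 9794, 9132, 2711, 7538 and 4027 barcodes (untreated, VD3 and Ndrg2-KO DCs, then control, Ndrg2-KO and blank wounds). Total depth was 116461484 to 143627482 UMIs in the cultures and 29675507 to 49240341 in the wounds. Scrublet (scanpy 1.11.5) called at most 0.873% of cells as doublets, and none were removed. Cultures and wounds were clustered separately in Seurat 5.3.0 (2000 variable genes without the 10 members, 15 principal components, Louvain resolution 0.5). A cluster was named where 3 or more markers from 1 list were at 50 CPM or above and at least 2-fold above the remaining cells. Counts were summed per library and cluster and given as CPM with exact Poisson intervals, shares with Clopper-Pearson intervals and ratios with conditional binomial intervals (SciPy 1.17.1), tested on simulated data. Ratios past 2-fold with at least 50 UMIs in 1 of the pair were counted as called. For shares of cells, cells were drawn down to 2000 (cultures) or 1000 (wounds) UMIs. Likeness was Pearson's r of log2(CPM + 1) among genes with at least 500 UMIs. Members were always named, as were the leading genes by likeness. Up to 3 genes of each pathway list with the largest ratios past the limit were named in comparisons with untreated DCs or control wounds. Csf2, Csf3, Il3, Il34 and Flt3l were named as ligands whatever their values. One gene of the signalling list is not reported here. The members and lists were chosen with earlier results of these data known.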

Additional observations from a re-analysis of the deposited data

Results flagged for a closer look

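In 2 comparisons a member was past 2-fold in opposite directions in different clusters of the same libraries, and the difference between clusters was not tested, as each condition was 1 library. Csf1r in VD3 against untreated DCs had a log2 ratio of 2.82 in progenitor-like cells and 1.09 in shallow cycling cells, but -1.17 in cDC1-like cells. Csf1 in wounds with blank hydrogels against control DCs had a log2 ratio of 3.14 in macrophage-like Mrc1 C1qa cells, 2.32 in H2-Ab1 Ccr2 cells and 1.02 in Mmp12 Arg1 cells, but -1.17 in the mixed keratinocyte-like cells. S100a9, a neutrophil gene, was 241 CPM in control and 788 in blank wounds in the Mrc1 C1qa cells, 1020 and 1710 in the H2-Ab1 Ccr2 cells, 45.5 and 722 in the Mmp12 Arg1 cells and 2290 and 3440 in the mixed keratinocyte-like cells, and its part in these values was not tested.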

How the results depend on the processing

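No paired analysis was possible because each condition was 1 library, which also leaves every difference without a replicate check. Of 52 recomputed counts of members called, 48 stayed within 1.5 times the count reported. Of 598 recomputed single values, 297 lay within the 95% counting interval of the value reported, 300 outside it and 1 reversed. In wounds with Ndrg2-KO DCs the count was 6 with a 1.5-fold limit and 1 with the neutrophil-like clusters left out (chosen after seeing the data), and in blank wounds 5 and 1. The share of all genes at these settings was not computed, so these counts cannot be weighed against a background. Of the 125 recomputed log2 ratios of the 23 values past 2-fold, 124 kept their direction. The exception was Csf1 in mature VD3 against untreated cells, at -0.10 where mature cells were those with at least 3 of 8 mature markers, and the cause was not tested. Precision was limited by few UMIs for Kitl in VD3 DCs, for Flt3 in all cultures, and for clusters with under 50 cells.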
